A study of Mus musculus with 8 samples.

Results

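The nucleosome maps of wild-type (WT) mouse round spermatids and condensing spermatids were compared summit by summit. Round spermatids are the haploid cells that follow meiosis. In condensing spermatids the nucleus is compacted and histones are replaced, first by transition proteins and then by protamines, the small arginine-rich proteins that package sperm DNA. A nucleosome is DNA wrapped around a core of histones, and a regular array of nucleosomes is typical of chromatin in which histones are retained. Each summit is the centre of a population of DNA fragments that survived micrococcal nuclease (MNase), which cuts the DNA between protein-covered stretches.

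The members were all deposited positions on chromosomes 1 to 19 in the 2 WT nucleosome lists: 5322422 in round and 3748879 in condensing spermatids, out of 28093341 autosomal positions in the 6 lists read here. The series holds 8 libraries from testis, of WT and H2A.L.2-less mice, H2A.L.2 being a testis-specific H2A variant. Both groups compared were WT, carried the normal gene and comprised 1 library each, from cell fractions enriched for the named stage. Particles were fractionated on a sucrose gradient. Size selection by electrophoresis, to about 130 to 170 bp, was named for the condensing nucleosome library only, so stage and fragment selection cannot be told apart. The sources used here give neither age nor strain, and stages could not be checked against marker genes in DNA positions. With 1 library per group no test between stages was possible, and neither summits nor windows stand in for replicates. Spreads given as SD are over the 19 autosomes and describe variation along the genome.

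The series description puts the reads per sample between 207000000 and 753000000, without a figure for single libraries. The deposited summit value, a coverage height with no common scale, had a first percentile of 176 in the round and 168 in the condensing list and a median of 240 and 200. Summits closer together than 100 bp were in neither list, and most summits, 96.8% in the round and 95.5% in the condensing list, had coordinates on a 10 bp grid. A site whose coverage was under the calling floor is missing from a list, so below "kept" means that a round summit had a condensing summit called within 40 bp, "lost" that none was called there, and "new" that a condensing summit had no round summit within 40 bp. As a background, the same shares were read after moving the other list by 5000 bp along the chromosome, which keeps the local density of both lists (the displaced share).

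Most round spermatid nucleosome positions had no condensing counterpart, and most condensing positions had no called round summit within 40 bp. The second statement depends on that limit, since within 73 bp 47.8% of condensing summits were new. Of the round summits, 1301418 were kept and 4021004 were lost, a kept share of 24.5% ± 1.35 (SD over 19 autosomes, 95% Wilson interval 24.4% to 24.5%, which covers counting error only). The displaced share was 15.8% ± 1.27, so the kept share was 1.54 ± 0.0517 times the displaced one, an excess of 8.61 percentage points. The kept share exceeded the displaced share on 19 of 19 autosomes, with ratios from 1.46 on chromosome 11 to 1.67 on chromosome 3. Of the condensing summits, 2447461 were new, or 65.3% ± 1.16, and the other 34.7% were matched, against 22.4% with the round list displaced.

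Kept summits were a mixture of close and loose matches. Of the 1301418 kept pairs, 14.97% lay within 5 bp of each other and 37.0% were more than 25 bp apart. In displaced pairs these shares were 12.0% and 43.2%. Of the lost summits, 16.7% had a condensing summit more than 40 and up to 73 bp away, and the median distance to the nearest was 185 bp. Such neighbours include accidental ones: within 73 bp the kept share was 37.0%, 1.42 times the displaced share. There were 222017 lost summits, 5.52% of them, with no condensing summit within 1000 bp. New condensing summits lay at a median of 120 bp from the nearest round summit, 26.8% of them more than 40 and up to 73 bp away. Of the new summits, 47379 were over 1000 bp from any round one. Displaced shares for lost and new summits at these distances were not computed.

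The distance curve, the density of condensing summits around round summits relative to that at 800 to 1000 bp, showed a narrow peak on a low relief. It stood at 1.88 ± 0.0717 at the round summit (SD over 19 autosomes), and at 1.25 ± 0.0379 at 50 bp, where the decline paused. It reached its low of 0.952 ± 0.0252 at 90 bp, below the background on 18 of 19 autosomes. Since no list holds summits closer than 100 bp, a match near distance 0 leaves little room for another condensing summit at 90 bp, so this low and the values up to 120 bp depend on the calling, also in the other between-list curves. Smaller maxima followed at 120 bp (1.12 ± 0.0253), 180 bp (1.14 ± 0.0197) and 240 bp (1.12 ± 0.0194), and each exceeded the values 30 bp to either side on 19 of 19 autosomes. These maxima were about 60 bp apart, and the one at 180 bp lies at the most frequent gap between round summits. From WT spermatocytes to round spermatids, the step before, the curve was 3.82 at the summit, 0.683 at 90 bp, 1.52 at 180 bp and 1.31 at 370 bp. At 370 bp the round to condensing curve was at 1.01. In H2A.L.2-less mice the round to condensing curve had the same low relief, with 2.00 at the summit, 1.03 at 90 bp, 1.17 at 120 bp, 1.13 at 180 bp and 1.11 at 240 bp.

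The pattern was more marked around taller round summits. Around the highest 10% of round summits the curve was 2.77 at the summit, 1.31 at 120 bp, 1.25 at 180 bp and 1.18 at 240 bp. Around the lowest 10% it was 1.45, 1.01, 1.04 and 1.05. Part of this was a higher level: around the highest 10% the curve was 1.09 at 90 bp and 1.17 at 150 bp, against 0.896 and 0.977 around the lowest 10%. The maxima at short distances were thus present around low round summits too, with less relief.

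Within the condensing list the same short distances stood out. Its summits were 1.25 times the background at 130 bp, 1.20 times at 180 bp and 1.14 times at 240 bp, with 1.02 at 270 bp and 1.04 at 370 bp. Round summits stood at 1.22 at 130 bp, so the height there was not particular to the condensing list. They stood at 1.68 at 180 bp, 0.967 at 240 bp, 0.714 at 280 bp and 1.42 at 370 bp, the wave of a regular array. Because no summits closer than 100 bp were called, the rise at the left of these curves was set by the calling.

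**Figure D1:**
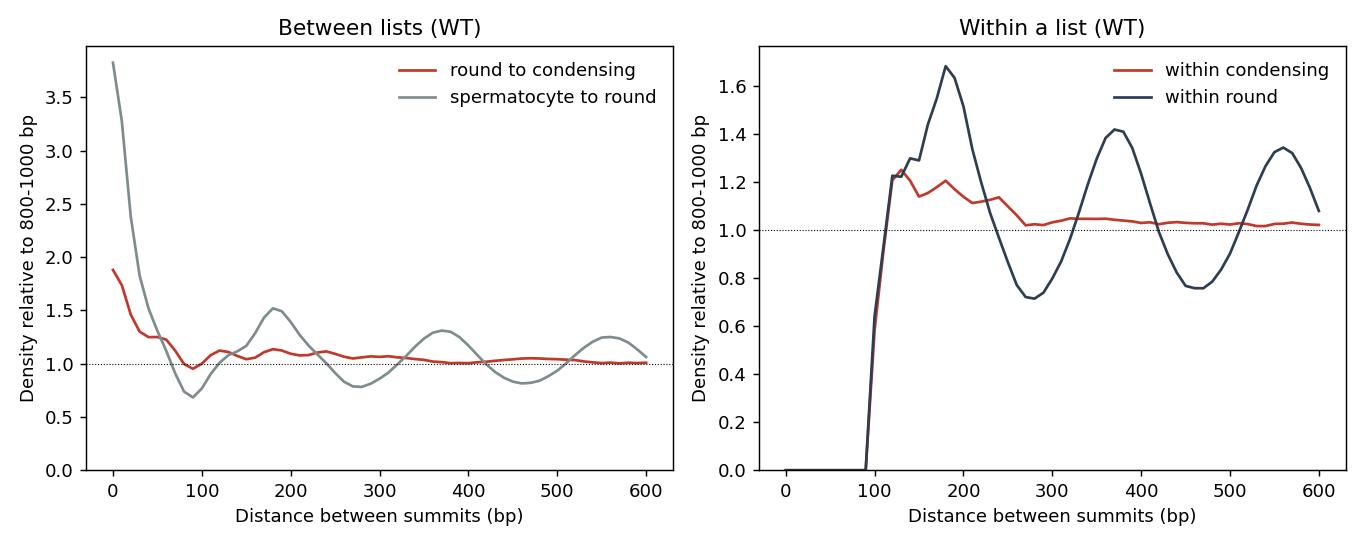
Density of summits (y axis, relative to the mean at 800 to 1000 bp) by distance (x axis, bp) between WT lists on the left and within a WT list on the right. The round to condensing curve peaks at 1.88 at distance 0 with small maxima at 120, 180 and 240 bp, whereas the curve from spermatocytes to round spermatids has a wave with maxima at 180 and 370 bp.

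Regular spacing was tied to summit height in round but not in condensing spermatids. Regularity was read from the within-list curve, counted only among summits of the same quintile. It was the highest value at 330 to 450 bp over the lowest at 230 to 330 bp, after smoothing over 5 bins of 10 bp. In the round list it was 1.30 for the lowest quintile of summits by height, 1.70 for the middle quintile and 3.25 for the highest quintile. In the condensing list it lay between 1.01 and 1.03 in all 5 quintiles, so by this measure the tallest condensing nucleosomes were spaced no more regularly than the lowest ones. The limits were set for a repeat near that of round spermatids and do not register a shorter one. Both ranges include 330 bp, so the peak cannot be below the trough, and the condensing values lay near this floor.

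**Figure D2:**
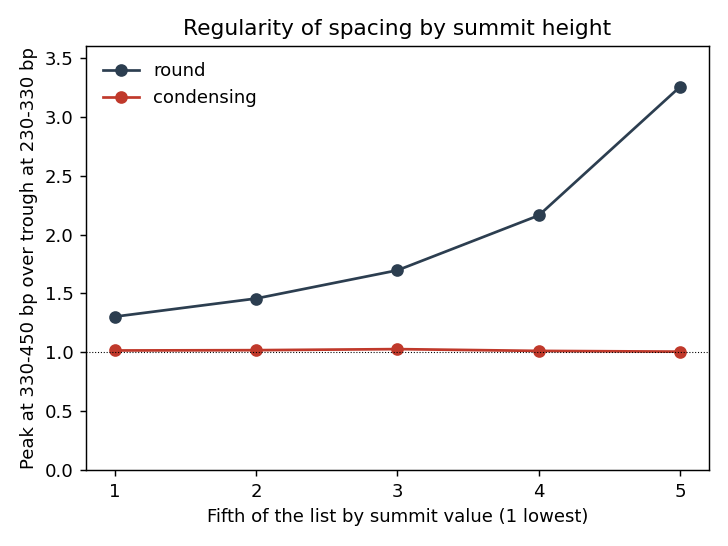
Regularity of spacing (y axis, peak over trough of the distance curve among summits of the same class) for summits in 5 equal classes of summit value (x axis, 1 lowest). Round summits run from 1.30 to 3.25, while all 5 condensing points lie between 1.01 and 1.03.

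Taller round summits were kept more often. The median kept summit stood at percentile 58.1 of round summit values and the median lost summit at percentile 48.9, with median values of 256 and 240. Of the kept summits 14.6% were in the highest decile of the round list, against 8.47% of the lost ones. The kept share was 18.96% in the lowest decile by summit value and 35.8% in the highest, while the displaced share was 15.1% and 16.8%, so that the ratio ran from 1.25 to 2.14. It climbed further in the extreme tail: 54.7% of the highest 1% of summits were kept (displaced 22.6%), 77.5% of the highest 0.1% (displaced 35.4%) and 82.5% of the 532 summits in the highest 0.01% (95% Wilson interval 79.1% to 85.5%, displaced 33.6%). In value, the highest 0.01% ran from 8180 to 30626488, against a list median of 240, so they stand apart from ordinary summits. Displaced shares as high were also found in dense windows, at 33.7% in those with over 300 condensing summits. The density around the extreme summits was not measured.

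Seen from the condensing list the order was the same. Matched condensing summits had a median percentile of 54.7 and new ones of 50.5. The matched share was 29.6% in the lowest and 44.3% in the highest decile by summit value, with displaced shares of 20.9% and 24.3%. Height was only weakly carried over from one stage to the other. Over the 1301418 kept pairs, the rank correlation of the 2 summit values was 0.138, and 0.0313 over displaced pairs. Of the kept round summits in the highest decile, 26.05% had a partner in the highest decile of the condensing list, against 16.9% in displaced pairs. The share was 8.93% for kept round summits in the lowest decile and 13.0% for all kept summits.

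Over the whole list, fuzziness, the position caller's score for the scatter of fragments around a summit, did not separate kept from lost. Its median was 53.24 in kept and 53.25 in lost round summits, a difference of -0.00865 ± 0.0702 (SD over 19 autosomes), smaller than the spread between chromosomes. New and matched condensing summits had medians of 54.25 and 54.27. At the step from spermatocytes to round spermatids, by contrast, kept summits were sharper than lost ones by -1.03 ± 0.0754. In the 10 classes of round fuzziness, the kept share lay between 22.9% and 25.01%. The displaced share was 13.8% in the sharpest and 17.1% in the fuzziest decile, so the ratio was 1.66 and 1.39. Within the highest quintile by summit value, the ratio was 2.08 for the sharpest and 1.86 for the fuzziest quintile, and within the lowest quintile it was 1.29 and 1.26.

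**Figure D3:**
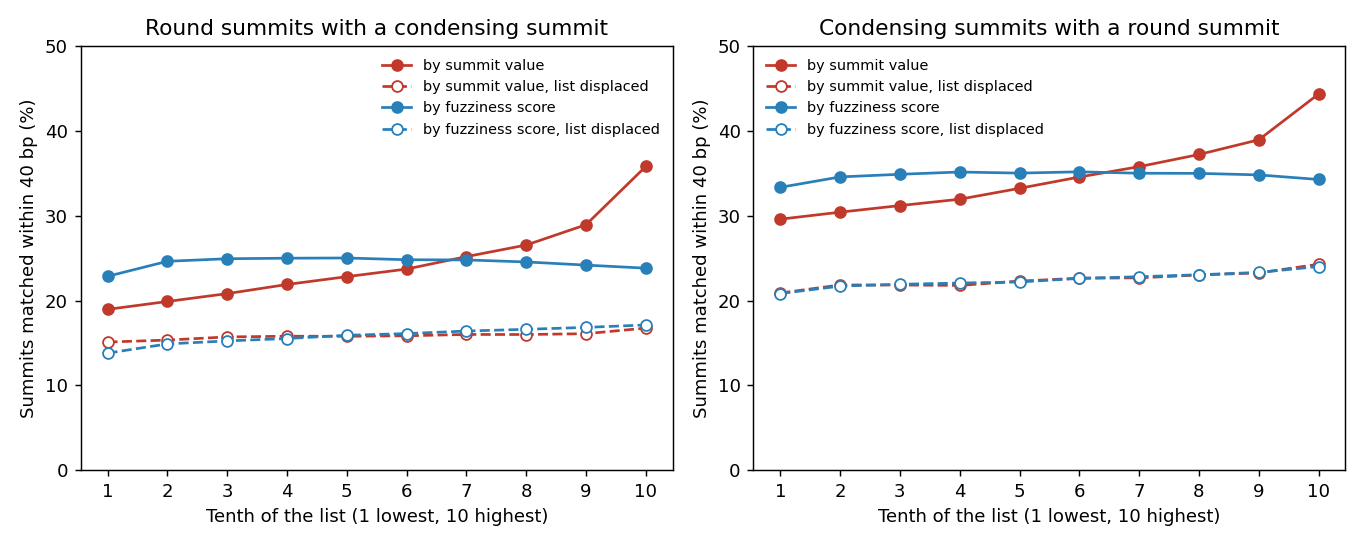
Share of summits matched within 40 bp (y axis, %) by decile of the list (x axis) for round summits on the left and condensing summits on the right, ranked by summit value or by fuzziness, with open symbols for the displaced list. Round summits range from 18.96% to 35.8% by summit value but stay between 22.9% and 25.01% by fuzziness.

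Fuzziness was slightly higher in the condensing list as a whole, with medians of 54.3 and 53.2, and kept pairs differed little from that. In kept pairs the condensing score was the higher in 58.0%, with a median difference of 1.01, and in displaced pairs in 56.1%. Fuzziness was partly shared by the 2 stages, with Pearson's r of 0.213 over kept pairs and 0.0227 over displaced pairs, as a description over positions that share libraries. The score also followed the distance to the nearest neighbour. In the round list its median was 57.2 for summits with a neighbour at 100 to 130 bp. It was 49.99 for those whose nearest was over 500 and up to 1000 bp away. In the condensing list these medians were 57.5 and 53.0. With a neighbour at 100 to 130 bp, kept round summits had a median of 56.96 and lost ones of 57.26. Kept summits were the sharper in every class up to 500 bp, by less at longer gaps. Beyond 500 bp the order was reversed, with 50.2 for kept and 49.9 for lost summits up to 1000 bp.

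Neighbour spacing differed little between the classes. The nearest round summit was at a median of 180 bp from kept and 185 bp from lost summits, counting gaps up to 1000 bp, a difference of 5 bp, which is within the 10 bp grid and near the SD of 4.81 bp over 19 autosomes. The nearest condensing summit was at 220 bp from matched and 230 bp from new ones. A nearest gap of over 160 and up to 200 bp, the length of a nucleosome repeat, surrounded 23.9% of kept and 22.4% of lost summits. Isolated summits, with no neighbour within 500 bp, made up 6.27% of kept and 9.62% of lost summits, and 14.3% of matched and 18.4% of new ones.

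Isolated positions were kept less often, and so were displaced ones. With the nearest round summit over 200 and up to 250 bp away the kept share was 25.9% (displaced 16.2%, ratio 1.599), and with none within 1000 bp it was 13.2% (displaced 9.61%, ratio 1.38). The 350785 round summits with both neighbours 160 to 210 bp away were kept in 27.6%, against 24.2% of the others. Their displaced shares were 17.9% and 15.7%, and both ratios were 1.54. Membership in such a stretch of a regular array thus came with no higher ratio.

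Pooled over all gaps up to 1000 bp, a neighbour's state made little difference to whether a round summit was kept. The direction depended on the gap. After a kept summit the next round summit within 1000 bp was kept in 26.5%, and after a lost one in 24.6%. With the condensing list displaced, these shares were 19.3% and 15.7%. Of the neighbouring round pairs, 323006 had both members kept, which is 6.65%, against 3.13% with the condensing list displaced. In 32.7% of them the spacing in condensing spermatids was within 10 bp of that in round spermatids, against 31.2% in displaced pairs. The offsets of the 2 neighbours were correlated at r of 0.0409, and at 0.0439 in displaced pairs. No joint movement beyond that in displaced pairs was thus seen. Pairs with both members kept include accidental matches, given the displaced 3.13%, and offsets are cut off at the matching limit. These correlations therefore cannot show whether retained neighbours shifted together.

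Other libraries of the series, which took no part in the matching, separated the classes more clearly. Kept round summits were also found in spermatocytes in 60.3% ± 0.894 (SD over 19 autosomes), against 51.8% ± 0.864 of lost ones, with displaced shares of 22.7% and 21.6%. In condensing spermatids of H2A.L.2-less mice, 35.996% ± 1.28 of kept and 21.6% ± 1.16 of lost summits had a counterpart, with displaced shares of 17.5% and 15.9%. Kept summits were above lost ones in each of 10 deciles of summit value, by 4.33 to 7.24 points in spermatocytes and by 12.4 to 16.7 points in H2A.L.2-less condensing spermatids. Heights still differ within a decile, most of all in the highest one. Small structures, the fragments of about 40 to 80 bp from WT condensing spermatids, lay within 40 bp of 47.2% ± 2.36 of kept and 40.5% ± 2.23 of lost summits, against displaced shares of 26.2% and 23.8%. Places without a condensing nucleosome summit thus held a small-structure summit at 1.70 times the displaced share, and kept places at 1.80 times. All WT condensing summits met a small structure in 33.5% (displaced 24.3%), so this difference is partly set by the definition too.

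New condensing summits had few counterparts in the earlier stages, which is partly set by their definition: they have no WT round summit nearby, and 55.4% of spermatocyte positions match a round one. In spermatocytes 22.9% ± 1.24 of them had a counterpart, with a displaced share of 21.1%, and in H2A.L.2-less round spermatids 22.4% ± 0.474, with 18.4%. Taller new summits had more. In the highest decile of summit value 29.2% had a spermatocyte counterpart (displaced 22.8%, ratio 1.28) and 29.9% one in H2A.L.2-less round spermatids (displaced 20.2%, ratio 1.48), while the ratios in the lowest decile were 0.978 and 1.08. Condensing spermatids of H2A.L.2-less mice had one at 27.9% ± 1.17 of the new summits, 1.71 times the displaced share of 16.3%. Matched condensing summits were found there in 36.6% ± 1.32, or 2.09 times. The 682893 new summits shared with the H2A.L.2-less condensing list had a median percentile of 58.8 in summit value, and the 1764568 others of 40.8. Their ratio in spermatocytes was 1.26 and 1.01. Small structures met new summits in 26.3% ± 2.95, against a displaced share of 23.3%.

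Condensing summits were as closely tied to spermatocyte as to round spermatid positions. In WT spermatocytes 34.6% of all condensing summits had a counterpart, 1.599 times the displaced share, and in round spermatids 34.7%, 1.55 times. In the condensing list of H2A.L.2-less mice, the same stage in another genotype, the share was 30.9%, 1.85 times the displaced one. Round summits that were already present in spermatocytes were kept in 27.4% (ratio 1.72) and the others in 21.0% (ratio 1.34).

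**Figure D4:**
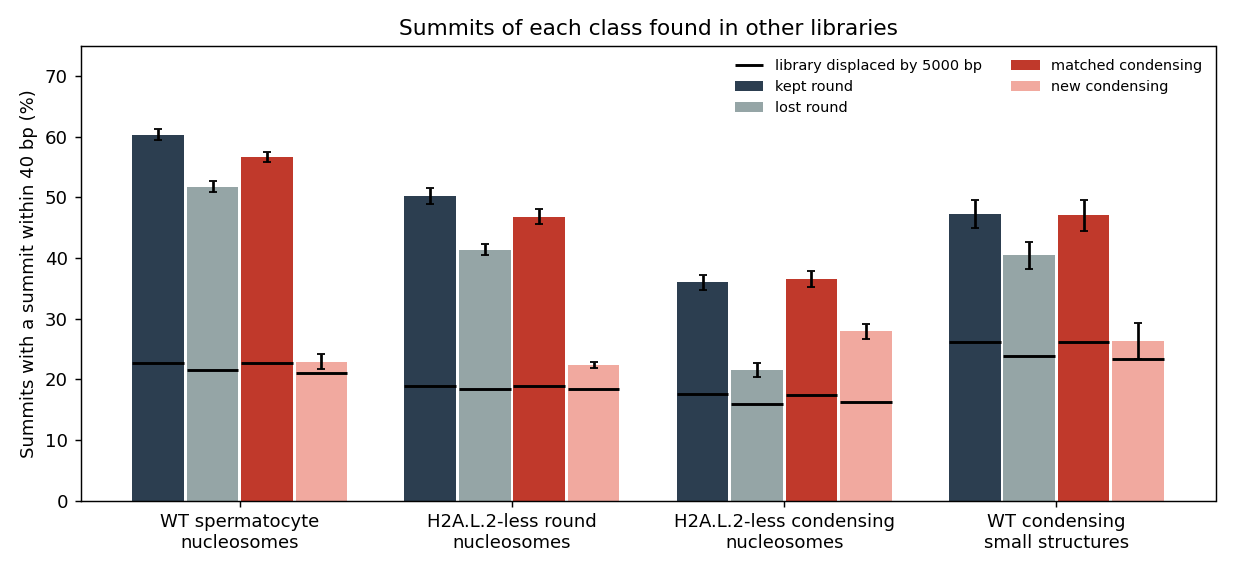
Share of summits with a counterpart within 40 bp in 4 other libraries (y axis, %) for kept and lost round and matched and new condensing summits. Bars are autosomal shares with the SD over 19 autosomes, and black lines the shares with the other library displaced by 5000 bp. New condensing summits reach 27.9% in H2A.L.2-less condensing nucleosomes, where their displaced share is 16.3%, and 22.9% in spermatocytes, where it is 21.1%.

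The step was then set beside 2 other steps between successive stages. From WT spermatocytes to round spermatids the matched share was 55.4% ± 0.297, 2.47 ± 0.168 times the displaced share, and from round to condensing spermatids of H2A.L.2-less mice 25.3% ± 1.52, 1.66 ± 0.0570 times. With the 3748879 highest summits of each list, the shares were 26.4% for the WT step, 48.9% for the WT step before it and 25.9% for the H2A.L.2-less step, with ratios of 1.64, 3.01 and 1.74. The difference in percentile between kept and lost summits was 9.15 ± 1.25 points here, 18.6 ± 1.86 at the WT step before and 13.9 ± 1.86 in H2A.L.2-less mice. Each step rests on 1 library per stage, and the differences between steps were not tested.

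Along the chromosomes, condensing summits were dense where round summits were dense. In the 23947 windows of 100 kb with at least 100 summits in the 2 lists together, the median was 217 round and 153 condensing summits, with ranges of 37 to 500 and 21 to 546. Pearson's r between the numbers was 0.874, from 0.731 on chromosome 7 to 0.938 on chromosome 2. Windows of WT round spermatids and spermatocytes gave an r of 0.976, and condensing spermatids of the 2 genotypes 0.974. Round and condensing spermatids of H2A.L.2-less mice gave 0.746. WT round spermatids and the small structures of WT condensing spermatids gave 0.956, above the value for the WT condensing nucleosomes. These are descriptions over windows, which share libraries and sequence composition. The log2 ratio of condensing to round summits had a median of -0.53, close to the -0.51 of the whole lists, with 90% of windows between -0.95 and -0.09. Relative to the whole lists, 81 windows were at least 2-fold higher, which is 0.338% of windows, and 35 at least 2-fold lower, which is 0.146%.

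The kept share followed local density, and its excess over the displaced share went the other way. In the quintile of windows with the fewest round summits 19.1% of them were kept and in the quintile with the most 28.1%, whereas the displaced shares were 7.85% and 21.0%. The ratio was thus 2.43 in the sparsest and 1.34 in the densest windows, and the excess 11.2 and 7.08 points. New summits made up 72.8% of condensing summits in the sparsest and 59.3% in the densest windows. Among the 23418 windows with at least 100 round summits, the kept share was above the displaced share in 99.4%.

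**Figure D5:**
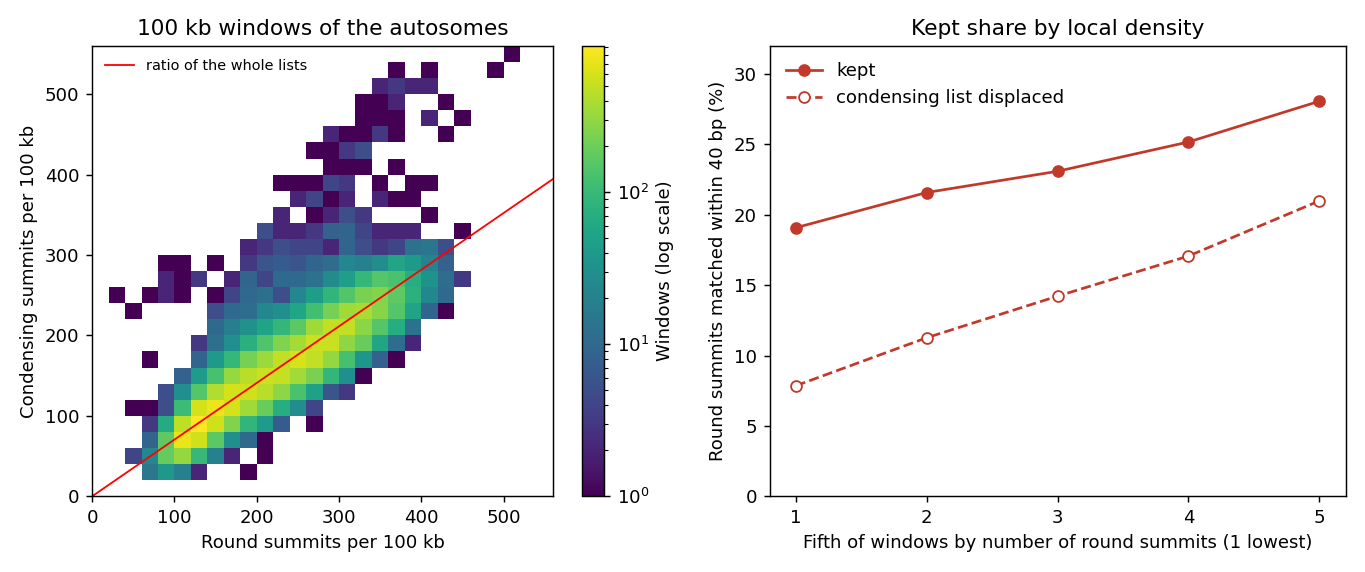
Left, numbers of round (x axis) and condensing (y axis) summits per 100 kb window, with colour for the number of windows on a log scale and a red line for the ratio of the whole lists. Right, share of round summits matched within 40 bp (y axis, %) by quintile of windows ranked by round summits, kept and with the condensing list displaced. Kept shares range from 19.1% to 28.1% and displaced ones from 7.85% to 21.0%.

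The windows with the highest condensing to round ratio were all on chromosome 7 (mm9), where the WT round list was sparse. From 32500001 to 32600000 there were 37 round and 250 condensing summits, a log2 ratio of 2.72. The other 4 windows, which start at 33000001, 33200001, 33300001 and 33600001, held 55 to 93 round and 236 to 287 condensing summits. WT spermatocytes were as sparse there, with 16 to 57 summits, but H2A.L.2-less round spermatids had 202 to 236. Over the whole stretch from 32000001 to 34000000 there were 2567 round and 5345 condensing summits in WT, and 4559 and 5316 in H2A.L.2-less mice.

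The lowest ratios were on chromosomes 13, 17 and 2. On chromosome 13 from 62000001 to 62100000, 194 round summits stood against 25 condensing ones, a log2 ratio of -2.91, and 8 round summits were kept. The H2A.L.2-less lists showed the same there, with 110 and 14. The adjoining window from 61900001 to 62000000 held 207 and 45 in WT. On chromosome 17 from 6600001 to 6700000 there were 119 round and 21 condensing summits in WT, a log2 ratio of -2.45, and 39 of each in H2A.L.2-less mice, a log2 ratio of 0. The same window held 358 small structures, where the median window outside the dense ones described last held 193. From 6800001 to 6900000 on that chromosome the WT numbers were 105, 26 and 351, and the H2A.L.2-less lists had 33 round and 41 condensing summits. On chromosome 2 from 176600001 to 176700000 there were 84 round and 21 condensing summits.

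The kept share was highest in 3 windows in which the displaced share was high too. It was 75.9% on chromosome 8 from 19800001 to 19900000 (displaced 43.5%), 69.5% on chromosome 13 from 68100001 to 68200000 (displaced 33.5%) and 69.2% on chromosome 10 from 57600001 to 57700000 (displaced 36.8%). Lowest were the chromosome 17 window from 6600001 with 2.52%, equal to its displaced share, the chromosome 13 window from 62000001 with 4.12%, and chromosome 16 from 73900001 to 74000000 with 5.66%. In the last, 106 round summits stood against 32 condensing ones. Gene names were not placed on these windows, because the annotation used here is of another build.

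A group of 193 windows held over 300 condensing summits each, a set chosen after its values were seen. Because the choice itself favours a high condensing number, the comparison of condensing with round numbers in them is a description of the choice. Their medians were 333 condensing and 321 round summits. The median summit value there was 288 in round and 248 in condensing spermatids, against 240 and 200 in the other windows, and condensing fuzziness was 55.8 against 54.1. On chromosome 5, 21 of these windows lay between 94000001 and 96200000, with medians of 327 round and 441 condensing summits in WT, numbers to which the same limit applies.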

How the data were processed

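Nucleosome positions of WT round and condensing spermatids were compared on mm9. Bowtie2 2.2.9, deepTools 2.2.4 and mm9 are named in the submitters' processing notes, and 3 runs per sample were merged after alignment, per the series description. Version and thresholds of the position caller are not given in the sources used here. The deposited summit value is a signal of coverage height in steps of 4, and its values show no scaling to depth. The fuzziness score is the authors' measure of scatter, per the file headers. Summit values were used as ranks within a list, and tied values were divided into deciles and quintiles in genome order.

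Summits were matched within 40 bp, and the background was the share after moving the other list by 5000 bp. Distances were counted in 10 bp bins. Windows of 100 kb with at least 100 positions in both lists together were compared, with 1 added to each number before the log2 ratio. Named windows are the 5 highest and 5 lowest ratios and the 3 highest and 3 lowest kept shares. The members, measures and lists were chosen with earlier results of these data known. No test was made. With equal numbers, ties were broken at random. Python 3.11.15 with numpy 2.4.6, pandas 2.3.3, scipy 1.17.1 and matplotlib 3.10.9 was used. On simulated data, 20000 positions of which 30.3% were made to match gave back 30.3%. These positions were too far apart for accidental matches, unlike the real lists. The simulation therefore checks the matching code only and says nothing about the kept share.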

Additional observations from a re-analysis of the deposited data

Results flagged for a closer look

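The X chromosome lies outside the autosomal comparison, and there too the kept share exceeded the displaced one. Its lists held 63411 round and 30865 condensing summits. Of the round ones 16.7% were kept (95% Wilson interval 16.4% to 17.0%), 3.92 times the displaced share of 4.26%. This kept share was below the 24.5% of the autosomes. The ratio was higher in sparse autosomal windows too, at 2.43 in the sparsest and 1.34 in the densest quintile by round summits. The part of sparse lists in the X ratio was not tested. On chromosome 17 from 6800001 to 6900000, the log2 ratio of condensing to round summits was -1.97 in the WT lists but 0.30 in the H2A.L.2-less ones, opposite in sign. WT had 105 round and 26 condensing summits, and H2A.L.2-less mice 33 and 41. This difference was not tested.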

How the results depend on the processing

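Of 49 alternative values, 18 stayed within the main value's Wilson interval (shares) or within 1 SD over autosomes (other measures), 27 moved further and 4 changed sign. The 18 include all values from one-to-one matching, which could not differ from the main ones, so they overstate the stability. Matching within 20 bp gave a kept share of 15.03%, a new share of 78.7% and a ratio to the displaced share of 1.72. Within 73 bp these were 37.0%, 47.8% and 1.42, so that new summits were no longer the majority. With equal numbers of the highest positions they were 26.4%, 73.6% and 1.64, and among summits no lower than the list's median value 16.7%, 76.1% and 1.90. Without the highest 0.1% of positions the shares were 24.4% and 65.4%. In all of these settings the kept share exceeded the displaced one.

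The fuzziness differences were small and their sign depended on the setting. Kept minus lost was -0.12 within 20 bp, 0.36 within 73 bp, 0.0209 with equal numbers and 0.15 at or above the median. New minus matched was 0.0766 within 20 bp, -0.35 within 73 bp, -0.13 with equal numbers and -0.21 at or above the median. The percentile of kept minus lost summits was 11.7 within 73 bp, 10.7 with equal numbers and 10.99 at or above the median. Their nearest gap differed by 0 bp within 20 bp and with equal numbers, and by -10 bp within 73 bp, at or above the median and for gaps of any length. The correlation of 100 kb numbers was 0.778 at or above the median. The causes were not tested. One-to-one matching gave the main values, since no list has summits closer than 100 bp. No paired analysis was possible because each group has 1 library. A floor on coverage limits what a lost or new summit shows, and depth per library is unknown.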

Other observations

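The windows that departed from the ratio of the whole lists by at least 2-fold were unevenly spread over chromosomes. Of the 81 higher ones, 41 were on chromosome 7, 16 of them between 32 and 34 Mb, and 14 on chromosome 4. Of the 35 lower ones, 10 were on chromosome 16 and 9 on chromosome 14. The share of all windows that lies on each chromosome was not set beside these counts. Across all 23947 windows, Pearson's r between the WT and the H2A.L.2-less log2 ratios was 0.430. In 3.15% of windows there were more condensing than round summits in WT.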
